A study of Mus musculus with 2 samples.

Results

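A set of 10 cytokine genes of the B lineage was followed in mouse hybridoma cells: the TNF family genes Ltb, Lta and Tnf, the growth factor gene Tgfb1, the cytokine gene Mif, and the interleukin genes Il6, Il10, Il15, Il16 and Il18. They are 10 of the 17305 genes that the arrays' probes could be matched to by RefSeq accession, and each was matched by 1 probe. A hybridoma is a fusion of a B cell and a myeloma cell that grows in culture and secretes antibody; the strain is labelled 1H5F9. One culture received 5 µg/ml of the bursal peptide BSP-II for 4 h and the other 0 µg/ml, both in RPMI medium with fetal bovine serum, and each gave 1 single-colour (Cy3) Agilent array of total RNA. The design mentions repeat experiments on other cells, but only replicate 1 of each dose was analysed here, so no difference below has a replicate check and none was tested.

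Lymphotoxin alpha and TNF are secreted as homotrimers that signal through the TNF receptors, and lymphotoxin beta anchors lymphotoxin alpha at the cell surface in heterotrimers that engage the lymphotoxin beta receptor. Their genes lie side by side in the major histocompatibility complex. B cells use membrane lymphotoxin to organise lymphoid tissue, interleukin 10 and TGF-beta 1 restrain immune responses, and interleukin 6 is a growth factor on which many plasmacytoma and hybridoma lines were first maintained.

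Signals well above background were found for 8 of the 10 genes on both arrays, and for Il6 and Il15 on neither. Ltb, Tnf, Tgfb1 and, where background was subtracted, Lta were higher on the BSP-II array, Il18 was lower, and Mif, Il10 and Il16 lay near the median of all genes. Differences are log2 values of BSP-II minus untreated after each array was scaled to its 75th percentile. Those of Tnf (0.17) and Tgfb1 (0.18) were smaller than the scanner software's own error for a single spot (0.21 and 0.20). No member differed by 1.5-fold or more, the size used here in place of a test, against 6.04% of all 12855 genes measured on both arrays (1.21% higher and 4.83% lower). The median difference of the 8 members was 0.09 and that of all genes −0.03, with quartiles of −0.18 and 0.11. Of the 8 members, 5 were above 0 and 6 above the median of all genes; 44.7% of all genes were above 0.

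The stretches before the transcription starts of Ltb, Tnf and Lta are shown because these neighbouring genes were all higher on the BSP-II array in the main setting, and that of Il18 because its difference had the opposite sign. Each holds the 250 bases before the start in the RefSeq promoter table (build GRCm38.p6), 5′ to 3′ on the gene's strand. The table held 10 windows for 8 of the members, and none for Il10 or Il15. Capitals mark matches, on either strand, to the kappaB consensus bound by NF-kB, to TATAAA, to the AP-1 motif TGANTCA or to the cyclic AMP response motif TGACGTCA.
Ltb, chr17:35194257-35194506, plus strand: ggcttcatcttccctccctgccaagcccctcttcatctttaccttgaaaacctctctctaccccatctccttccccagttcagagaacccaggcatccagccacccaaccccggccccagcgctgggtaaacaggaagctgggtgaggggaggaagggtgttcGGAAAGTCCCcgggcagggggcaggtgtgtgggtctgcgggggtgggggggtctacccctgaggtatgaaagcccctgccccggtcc
Tnf, chr17:35202008-35202257, minus strand: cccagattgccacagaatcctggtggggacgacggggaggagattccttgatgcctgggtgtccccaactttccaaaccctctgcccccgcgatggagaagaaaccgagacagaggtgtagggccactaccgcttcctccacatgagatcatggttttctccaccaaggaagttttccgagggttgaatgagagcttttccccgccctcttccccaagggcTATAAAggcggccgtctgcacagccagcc
Lta, chr17:35205352-35205601, minus strand: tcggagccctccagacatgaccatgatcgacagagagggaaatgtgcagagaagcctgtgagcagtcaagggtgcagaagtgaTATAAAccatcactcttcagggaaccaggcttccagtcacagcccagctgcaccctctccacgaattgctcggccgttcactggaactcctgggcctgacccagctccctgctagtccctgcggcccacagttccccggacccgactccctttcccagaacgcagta
Il18, chr9:50554450-50554699, plus strand: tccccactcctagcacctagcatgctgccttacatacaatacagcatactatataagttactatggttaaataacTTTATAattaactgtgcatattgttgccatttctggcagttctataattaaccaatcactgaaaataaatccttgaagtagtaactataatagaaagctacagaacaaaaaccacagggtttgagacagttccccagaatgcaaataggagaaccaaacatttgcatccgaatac

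The Ltb window held 1 kappaB match, on the opposite strand to the gene, from 87 to 78 bases before the start. No kappaB match lay in the windows of Tnf, Lta or Il18, which says only that these letters are not in these 250 bases. The Tnf window held TATAAA from 29 to 24 bases before the start, and the Lta window from 167 to 162 bases before it. The Il18 window held it on the opposite strand only, 175 to 170 bases before the start. Among the other members, Il6 had a kappaB match 44 to 35 bases before its start and an AP-1 match, and Mif the cyclic AMP response motif 24 to 17 bases before its start. Tgfb1 and 1 of the 3 windows of Il16 also held kappaB matches, and another window of Il16 an AP-1 match. In all, 4 of the 10 member windows held a kappaB match, 3 held TATAAA, 2 TGANTCA and 1 TGACGTCA. Among all 32851 windows of this length the shares were 7.25%, 12.4%, 6.75% and 1.55%. The base composition differed between the printed windows, with G and C making up 63.2% in Ltb, 57.6% in Tnf, 58.4% in Lta and 35.6% in Il18, where the median of all windows was 52.4%.

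Signals are given as Feature Extraction's processed signal, in intensity units with background subtracted. A probe's brightness also depends on its sequence, so signals are compared between the arrays and not between genes. The 75th percentile of the processed signal was 309 in untreated cells and 356 after BSP-II, a ratio of 1.15, so a probe whose processed signal differed by that ratio has a log2 difference of 0. The lowest signal of a probe well above background was 11.8 in untreated cells and 7.66 after BSP-II. Of all 41174 probes, 24681 were well above background in untreated cells and 27283 after BSP-II. The median local background was 46 and 37. For 6 members there were 10 spots spread over the array (Lta, Tnf, Tgfb1, Il6, Il10 and Il18) and for the other 4 there was 1 spot. The SD over spots is that of the difference between the arrays over the repeat spots. It leaves out any error shared by a whole array. For members with 1 spot the scanner software's own error is given. For signals of this brightness it is close to a fixed share of the signal (0.20 on the log2 difference). For single spots of detected members with repeat spots, that error had a median of 0.28 for Lta and 0.21 for Tnf. It was 0.20 for Tgfb1, Il10 and Il18. The SD over spots and the scanner error are not alike.

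**Figure D1:**
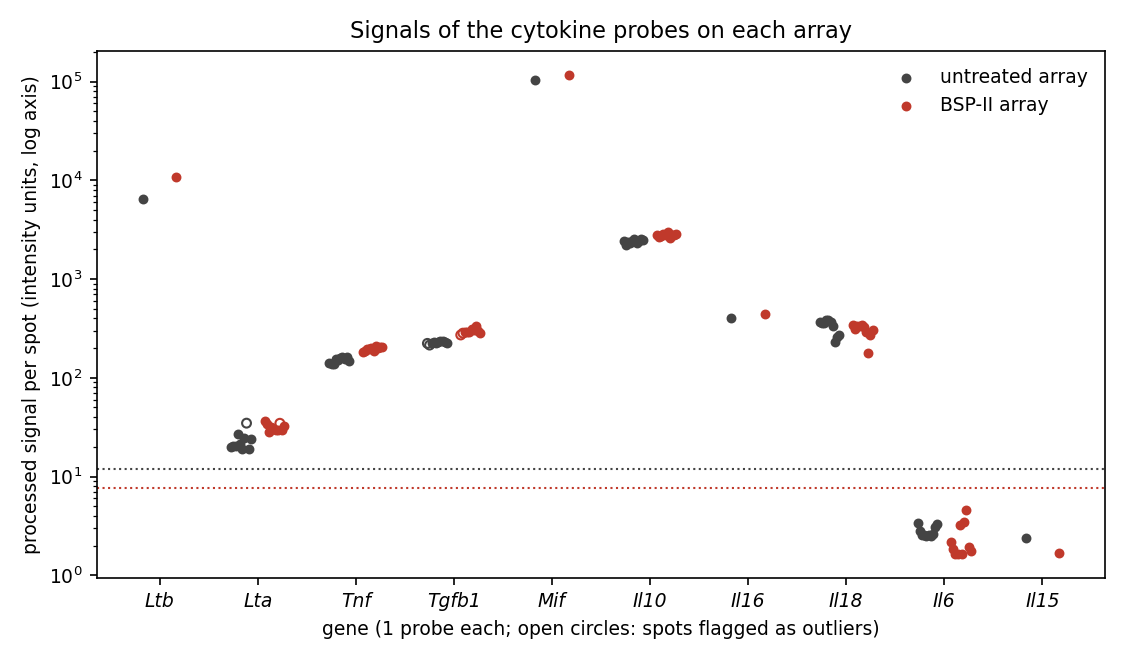
Processed signal of every spot of the 10 cytokine probes (log axis, intensity units) on the untreated array (grey) and the BSP-II array (red); dotted lines mark the lowest signal of a probe well above background on each array (11.8 and 7.66), and open circles spots flagged as outliers on either array. Il6 and Il15 lie below both lines on both arrays, and Lta is the detected member that lies closest to them.

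Ltb, the membrane-anchoring subunit of lymphotoxin, had a processed signal of 6510 in untreated cells and 10819 after BSP-II. The ratio was 1.66 before scaling and 1.44 after it, a log2 difference of 0.53 with a scanner error of 0.20. Of the 12855 genes, 215 had a higher difference than Ltb. Its signal lay 550-fold and 1413-fold above the lowest detected signal of the respective arrays, and the raw spot brightness was 6737 and 10993 over a local background of 47.5 and 38. Without background subtraction the log2 difference was 0.54. The value rests on a single spot. Around that spot, within 10 rows and columns, the median difference of detected spots was −0.04.

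Ltb was on the other side of the 1.5-fold line under some scalings. Its log2 difference was 0.65 with each array scaled to its median, 0.65 in the authors' deposited table and 0.59 with quantile scaling. Median scaling adds 0.12 to the difference of every gene; set against the median of all genes, Ltb stood at 0.55 under both percentile and median scaling.

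Lta, the secreted lymphotoxin subunit, was dim. Its 9 unflagged spots ranged from 19.1 to 26.8 on the untreated array, with a median of 20.3, and from 28.1 to 36.1 on the BSP-II array, with a median of 30.6. Every BSP-II spot was brighter than every untreated spot before scaling, but after scaling the ranges overlapped. The mean log2 difference was 0.32 ± 0.21 (SD over 9 spots of 1 array per dose), or 1.25-fold, and single spots ran from 0.02 to 0.66. All 9 spots were on the higher side. The spot left out, flagged as an outlier on the untreated array, had 34.7 and 34.6; with it the difference was 0.27.

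The higher level of Lta depended on how background was treated. The median raw brightness of its spots was 72 in untreated cells and 78.5 after BSP-II, over a local background of 47 and 37. Without background subtraction the log2 difference was −0.05, and with the normexp correction it was 0.15. The other settings gave 0.27 to 0.46.

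Tnf, which encodes the inflammatory cytokine tumour necrosis factor, had 10 spots from 138 to 162 on the untreated array (median 153) and from 180 to 208 on the BSP-II array (median 198). All 10 spots were on the higher side after scaling, with log2 differences from 0.01 to 0.29. The mean was 0.17 ± 0.08 (SD over 10 spots), or 1.13-fold, and the scaled ranges of the arrays overlapped. That mean was less than the scanner error of a single spot (median 0.21). Of all genes, 83.9% had a lower difference. The difference stayed between 0.13 and 0.30 in every alternative run.

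Genes that neighbour these 3 in the RefSeq order went both ways. Of the 5 protein-coding genes to each side, chosen after the values above were seen, 9 were measured on both arrays. Nfkbil1, next to Lta, was at 0.17 and Lst1, next to Ltb, at 0.02, while Aif1 was at 0.02 (other probe −0.18) and Prrc2a at 0.24. Apom and Atp6v1g2 were at −0.32 and −0.34, H2-D1 at −0.21, Ddx39b at −0.14 and Bag6 at 0.09 (other probe −0.39). In the main setting Ltb and Lta had higher differences than each of these 9 neighbours and Tnf than 8 of them. However, Lta exceeded Prrc2a by less than the SD over the Lta spots. Tnf likewise exceeded Nfkbil1 by less than the SD over the Tnf spots. Without background subtraction Lta was at −0.05.

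**Figure D2:**
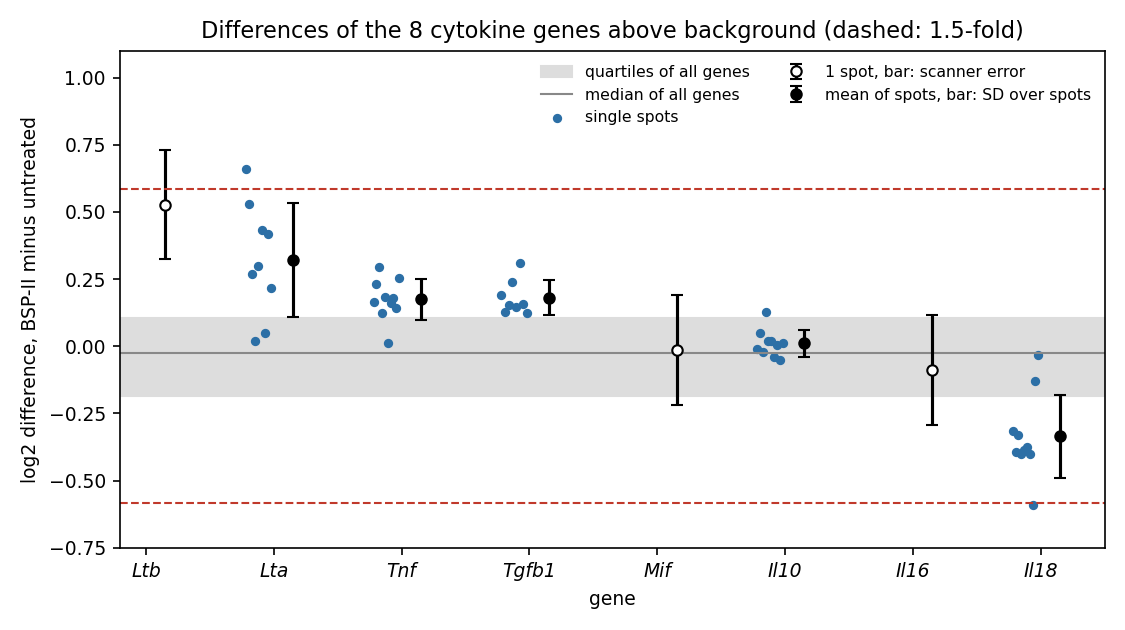
Log2 difference (BSP-II minus untreated) of the 8 members above background on both arrays. Blue points are single spots, black points the mean with the SD over spots, and white points members with 1 spot and the scanner error; the grey band spans the quartiles of all genes, from −0.18 to 0.11, and dashed lines mark 1.5-fold. Ltb, Lta, Tnf and Tgfb1 lie above the band, Il18 below it, and Mif, Il10 and Il16 within it.

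Tgfb1, whose product restrains lymphocyte growth and directs class switching to IgA, had 8 unflagged spots from 223 to 238 on the untreated array (median 229) and from 285 to 335 on the BSP-II array (median 296). The mean log2 difference of Tgfb1 was 0.18 ± 0.06 (SD over 8 spots), or 1.13-fold, less than the scanner error of a single spot (median 0.20). Tgfb1 was the 1 member of the 5 detected ones with repeat spots whose scaled, unflagged spots did not overlap between the arrays. Of the 157 detected probes with at least 5 unflagged spots, 19.7% did not overlap, 8.28% with BSP-II higher and 11.5% with BSP-II lower. The flagged spots gave 0.08 and 0.20; with them the mean was 0.17 and the ranges overlapped, the highest untreated level being −0.38 and the lowest BSP-II level −0.39 on the scaled log2 scale. Alternatives ran from 0.13 to 0.30.

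Mif, which encodes macrophage migration inhibitory factor, had a signal of 102826 in untreated cells and 117369 after BSP-II, from 1 spot that was not marked as saturated. The log2 difference was −0.01 with a scanner error of 0.20, and 52.4% of all genes lay below it. Relative to the median of all genes it was at 0.01, and between −0.01 and 0.07 over the 14 alternatives. No direction is given for it.

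Il10, an interleukin that restrains inflammatory responses, had 10 spots from 2223 to 2558 on the untreated array (median 2421) and from 2611 to 2988 on the BSP-II array (median 2808). Its log2 difference was 0.01 ± 0.05 (SD over 10 spots), with 6 spots above 0 and 4 below. Single spots ran from −0.05 to 0.13, and the scaled ranges overlapped over most of their length. Among the detected members with repeat spots it had the smallest SD. Il10 was thus well measured and lay close to the all-gene median: relative to that median it was at 0.04, under median scaling too.

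Il16, a chemoattractant released from a precursor, had 407 and 441 from 1 spot, a log2 difference of −0.09 with a scanner error of 0.20. Median scaling, which shifts all genes alike, put it at 0.03, and so did the authors' deposited table. Relative to the median of all genes it was at −0.06, and between −0.10 and −0.01 over the alternatives, less than the scanner error.

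Il18, an interleukin made as a precursor that caspase 1 cleaves, was the member on the lower side. Its 10 spots ranged from 231 to 385 on the untreated array (median 358) and from 177 to 342 on the BSP-II array (median 319). The mean log2 difference was −0.33 ± 0.15 (SD over 10 spots), 1.26-fold lower, and 13.7% of all genes lay below it. All 10 spots were on the lower side after scaling, from −0.59 to −0.03, and the scaled ranges overlapped. Before scaling 8 spots were dimmer on the BSP-II array and 2 brighter. The value stayed negative in all 13 alternatives that could give it, from −0.37 to −0.21.

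The spots of Il18 were uneven by position. The 7 spots in the rows up to 338 had untreated signals from 333 to 385 and log2 differences from −0.40 to −0.31. The 3 spots at rows 423, 473 and 524 had untreated signals of 231, 260 and 269, and differences of −0.59, −0.13 and −0.03. Over the 157 repeat-spot probes the SD of the difference had a median of 0.07 and an upper quartile of 0.16; Il18 with 0.15 lay just under that quartile and Lta with 0.21 above it. Subtracting local medians left Il18 at −0.34 and Lta at 0.31. What made these spots differ was not tested.

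Il6 and Il15, which encode a plasma cell growth factor and a growth factor of NK and memory T cells, were not well above background at any spot. The processed signals of the 10 Il6 spots were 2.50 to 3.41 on the untreated array and 1.65 to 4.58 on the BSP-II array. In 9 spots of the untreated array and 7 of the BSP-II array the signal was within 1% of its own stated error. The raw brightness of the Il6 spots had a median of 49.5 over a local background of 46 on the untreated array and 47.5 over 37.25 on the BSP-II array. The softer flag, positive and significant, was set at 1 Il6 spot in untreated cells and 3 after BSP-II. Il15 had 2.37 and 1.69 from 1 spot, positive and significant on the BSP-II array only. No fold is given for either gene, and a transcript below the arrays' detection limit is not excluded.

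**Figure D3:**
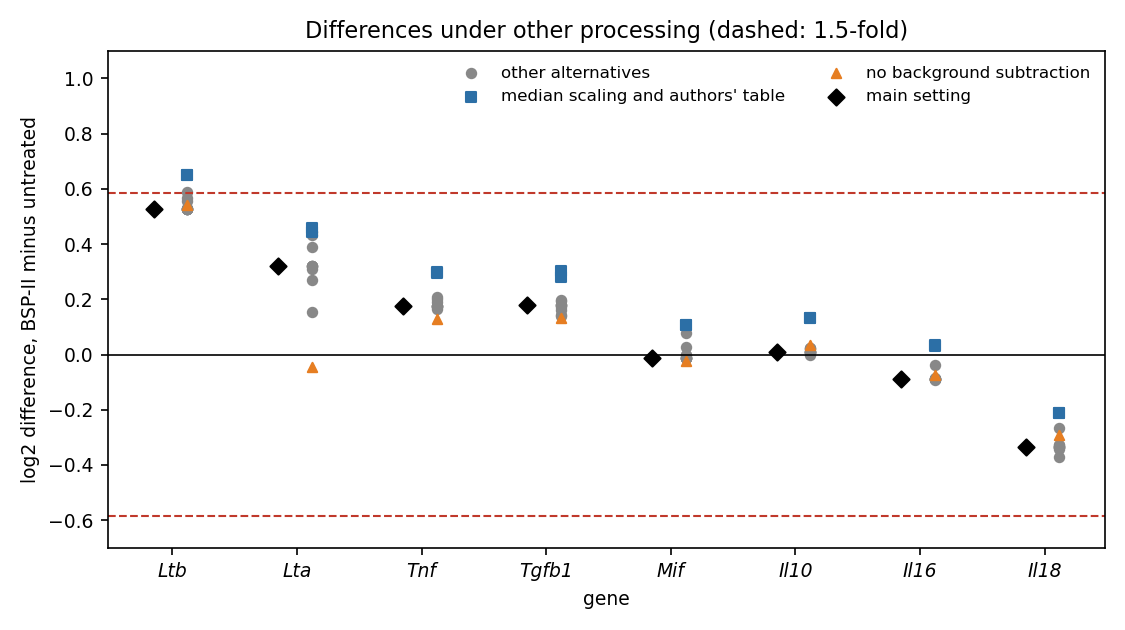
Log2 difference (BSP-II minus untreated) of the 8 detected members in the main setting (black diamonds) and under up to 14 alternatives; dashed lines mark 1.5-fold. Ltb lies on both sides of the 1.5-fold line, Lta at −0.05 without background subtraction, and Mif and Il16 on both sides of 0.

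The receptors of these cytokines were examined through a list of 21 genes, of which 16 were measured on both arrays; 1 was at least 1.5-fold higher and 1 at least 1.5-fold lower, where the shares of all genes were 1.21% and 4.83%. The median was 0.02. Ltbr, the receptor of membrane lymphotoxin, was the higher one: its signal was 78.2 in untreated cells and 172 after BSP-II, a log2 difference of 0.93 (1.91-fold) with a scanner error of 0.21. That value comes from 1 spot of 1 probe. It was 0.60 without background subtraction, 0.63 with normexp and up to 1.05 under other scalings, each still above 1.5-fold. The TNF receptors Tnfrsf1a and Tnfrsf1b were at 0.10 and 0.11, each over 9 spots, with SDs over spots of 0.11 and 0.05. The other probe of Tnfrsf1b gave −0.35. Tnfrsf14, a further lymphotoxin receptor, was dim and at 0.14.

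Among the TGF-beta receptors, Tgfbr2 was at 0.28. Tgfbr1 was at 0.01, but its other probe gave −0.81. Tgfbr3 was above background on the BSP-II array only (11.6 and 15.7), where more probes were above background in all. Of the chains that bind MIF, Cd74 was at 0.03, Cxcr4 at 0.02 and Cd44 at −0.27 (other probes 0.00 and −0.09), while Cxcr2 was not above background on either array. The interleukin 6 receptor chains Il6ra and Il6st were both detected and both at −0.02, close to the median of all genes; the other probe of Il6ra gave 0.12. The interleukin 10 receptor chain Il10ra was at 0.28, and Il10rb was matched by no probe.

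The lowest differences in the list were those of 2 of the 3 interleukin 15 receptor chains. Il2rb, shared with interleukin 2, had signals of 19.1 and 12.5, close to the detection limit, and a log2 difference of −0.81 (scanner error 0.34). It was −0.34 without background subtraction and −0.16 with normexp. Il15ra was at −0.46 (other probe −0.10). The common chain Il2rg was at 0.03. Cd4, the receptor of interleukin 16, was dim and at −0.27 over 10 spots. The receptor chains of interleukin 18, Il18r1 and Il18rap, were above background on neither array.

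A further 7 lists followed the cytokines from gene to signal. Genes at least 1.5-fold different were absent from 6 of them, and the remaining one held 1, against 6.04% of all genes. The signalling genes of interleukin receptors had a median of 0.14 over 22 measured genes, 17 of them above the all-gene median. The transcription factor genes Stat4 (0.67, 1.59-fold), Stat5a (0.42) and Stat6 (0.37, other probe 0.34) were among those with the largest differences, with the phosphatase gene Ptpn6 at 0.38 (other probe −0.02). Stat4 was at 0.50 without background subtraction and with normexp, short of 1.5-fold.

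In TNF and lymphotoxin signalling, 25 genes were measured and the median was 0.06. The inhibitor gene Nfkbie was at 0.42 but at 0.01 without background subtraction, and the adaptor gene Tab2 at 0.34 (other probe −0.06). The deubiquitinase gene Cyld, a brake on NF-kB, was at −0.52 and the adaptor gene Traf2 at −0.31. The TGF-beta pathway had a median of 0.07 over 15 genes, with Tgfb2 at 0.47 and Ltbp3, which binds latent TGF-beta, at 0.37 (other probe −0.35). The ubiquitin ligase genes Smurf1 and Smurf2 were at 0.24 (other probe 0.12) and −0.35. Smurf2 was dim, with signals of 24.2 and 21.9, and was at −0.08 with normexp and −0.32 without background subtraction.

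The list of processing and release had a median of −0.03 over 13 genes. Rhbdf1 and Rhbdf2, the inactive rhomboids that carry the TNF-shedding protease ADAM17 to the surface, were at 0.47 and 0.40, and the other probe of Rhbdf2 gave 0.55. Furin, whose product cleaves the TGF-beta precursor, was at 0.21. Regulators of cytokine mRNA had a median of −0.07 over 14 genes, with the RNA-binding protein genes Hnrnpd and Khsrp both at −0.35, the deadenylase gene Cnot6 at −0.36 and Tia1 at 0.23 (other probes 0.02 and 0.31). Transcription factors of cytokine genes had a median of 0.04 over 20 genes, with Bach1 at −0.51, Cebpd at 0.32, Nfatc2 at −0.26 (other probe −0.76) and Ahr at 0.26, which was 0.01 without background subtraction.

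Other cytokine genes were detected in part. Of 33 on the arrays, 14 were measured on both, 4 on 1 array only and 15 on neither, among them Il1a, Il1b, Il5, Il7, Ifng and Csf2. The 14 had a median of −0.10. The costimulatory ligand gene Tnfsf9 (0.52) and Csf3 (−0.55) were both close to the detection limit, with signals from 14.3 to 23.7; without background subtraction they were at 0.04 and −0.23, and Csf3 was at 0.03 with normexp. Vegfa was at 0.40 (other probes 0.36 and −0.23) and Tnfsf8 at −0.38. Tnfsf8 was dim, with signals of 26.3 and 23.4, and was at −0.10 with normexp and −0.21 without background subtraction.

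**Figure D4:**
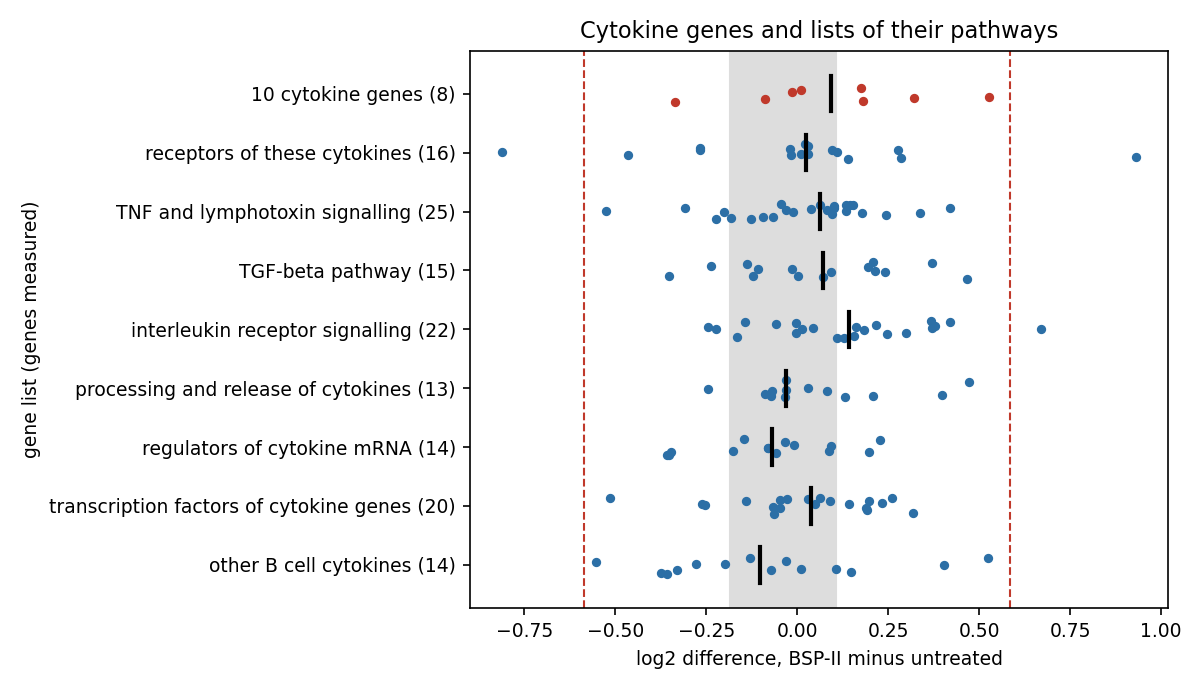
Log2 difference (BSP-II minus untreated) of the cytokine genes (red) and of the measured genes of each pathway list (blue), with the number measured in brackets; black bars are medians, the grey band spans the quartiles of all genes and dashed lines 1.5-fold. Beyond the dashed lines lie 2 receptor genes, Ltbr and Il2rb, and 1 signalling gene, Stat4.

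The labelled cell type was checked against marker genes. Of 14 B lineage and plasma cell markers, 13 were above background on both arrays, as were 12855 of all 17305 genes. Jchain, Mzb1, Sdc1 and Xbp1 were among the 13. Pax5, which plasma cells silence, was above background on neither array. The B lineage and plasma cell markers had a median difference of −0.16. Their summed scaled level was 1243 in untreated cells and 1135 after BSP-II, in units of each array's 75th percentile. A few bright probes carry that sum, and since brightness depends on the probe, sums are set between arrays and not between lists. For other cell types the sums were 2.32 and 1.88 for 8 T cell markers, 0.69 and 0.76 for 7 myeloid markers, 0.15 and 0.24 for 5 NK cell markers, 0.36 and 0.35 for 5 stromal markers, and 0.14 and 0.11 for 3 mast cell markers. These sums include markers below background. In the NK cell list Prf1 had a signal of 8.25, not above background, in untreated cells and 42.6 after BSP-II, from 1 spot. Of these, 6, 5, 1, 4 and 2 were above background on the untreated array and 8, 6, 2, 4 and 2 on the BSP-II array; Lyz2, Ncr1 and Gzma were on neither. In the myeloid list Csf1r was at 0.90 but at −0.75 by another probe, and Cd14 was at −0.69, both dim; the part of such signals in the cytokine values was not tested. Fewer cells that make a transcript and less of it per cell cannot be told apart in such bulk samples.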

How the data were processed

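Total RNA of each culture was labelled with Cy3 and hybridised to 1 array, both on 1 slide. Per the submitters' processing notes, arrays were read with Agilent Feature Extraction 10.5.1.1; the grid was built on mm9, per the file headers. The deposited intensity values are the raw median brightness of spot and local background, and a background-subtracted processed signal and error. Also deposited are flags (unit other) for saturated, outlier, positive and significant, and well-above-background spots. The authors' deposited log2 table lists 23296 probes; it follows the log2 processed signal less 4.85 (untreated) and 4.94 (BSP-II), so scale and direction are known from the values and the choice of centring is not. Its medians are 2.88 and 2.99.

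Control spots and 189 outlier spots on either array were left out, log2 processed signals were reduced by each array's 75th percentile, spots of a probe were averaged, and the probe with the highest mean level stood for a gene. A probe counted as well above background where the larger part of its spots were. Of 41174 probes, 25097 matched a RefSeq symbol (GRCm38.p6 table). With 1 array per dose there is no test. The scaling and the recovery of set differences were tested on simulated data with 1 spot per gene. All simulated spots counted as detected and unflagged. The background, detection, outlier, spot-averaging and probe-choice steps were therefore not covered. The arrays' number limits the precision. Named were all members, their receptors, and up to 4 genes per list with the largest difference; 1 of these is not reported here. The members and lists were chosen with earlier results of these data known. Python 3.11.15, numpy 2.4.6, pandas 2.3.3, statsmodels 0.14.6, matplotlib 3.10.9 and limma 3.58.1 (normexp, offset 50, on the median signal, as no mean signal was used here) served the work.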

Additional observations from a re-analysis of the deposited data

How the results depend on the processing

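In all, 12 alternatives were planned and 2 were added after the data were seen (outlier spots kept, and medians over spots). The count of members at least 1.5-fold different was 0 and became 1 with arrays scaled to their medians, with quantile scaling and in the authors' deposited table (Ltb in each), and also 1 without a filter on dim probes, where Il15, below background on both arrays, entered at −0.70. The shares of all genes at least 1.5-fold different were 5.34%, 5.19%, 4.53% and 19.7% in these settings. At 2-fold the count was 0. The median of the measured members, 0.09, ran from −0.00 to 0.21. The low end came from other sets of members: 10 without a filter on dim probes, and 4 with only genes at or above the median level. At the top end all genes shifted too. The members' median exceeded that of all genes by 0.12 in the main setting, and necessarily so with median scaling. The excess was 0.07 with normexp, 0.05 without a filter on dim probes and 0.04 without background subtraction. It was 0.00 with only genes at or above the median level, and 0.10 to 0.13 in the other settings. Of 108 member values under alternatives, 45 were identical to the main value, most of them because each member had 1 probe, which filters and rules for several probes cannot change. Of the other 63, 56 lay within the member's own spread. Set against the median of all genes, 4 values changed sign: 3 of Mif, all near 0, and 1 of Lta, without background subtraction. Signal over background limits Lta, Il6 and Il15. No paired analysis was possible because each dose had 1 array. The planned normexp was run on the median signal and not on the mean signal.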
